A study of Drosophila melanogaster with 20 samples.

Results

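A pair of Gal4 drivers was used to force expression of the proneural transcription factor Atonal (Ato) in the eye-antennal imaginal discs of *Drosophila* larvae, and the discs of the 2 crosses were compared with each other here. The comparison rests on the 3 Gal4/7 x UASato arrays and the 3 atoGal4 x UASato arrays, and it is set beside the difference between the 2 driver parents without UASato, Gal4/7 and atoGal4, with 2 arrays each. These are 10 of the 20 arrays of the series. The others, UASato and cantonS wild type (2 arrays each), *ato*-/- and atoGal4 x UASsens, enter only where named. All larvae of these lines were raised at 18 °C and moved early in the last larval instar to 28 °C for 24 h. The labels give the atoGal4 line as NP6558, do not say where Gal4/7 is active, and do not give the direction of the crosses or the number of copies of driver and UAS. Each sample is RNA of whole disc complexes, so a higher level in all cells and a larger number of expressing cells cannot be told apart. Values are log2 RMA values of an Affymetrix *Drosophila* array, a difference of 1 is 2-fold, and each gene is read from 1 probe set. The retinal determination genes *eya* and *dac* read between 10.59 and 11.86 on the 10 arrays. The study describes the samples of each of these lines as biological repeats. Nothing in the labels says that arrays of a line came from separate crosses, so the tests measure the spread between these samples.

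In the Gal4/UAS system a driver line supplies the yeast activator Gal4 in a chosen pattern and a second line carries a gene behind Gal4 binding sites, so that their offspring express the gene where the driver is on. In the eye disc Ato is the basic helix-loop-helix factor that selects the founding photoreceptor, R8, at the moving morphogenetic furrow. The zinc finger factor Senseless (Sens) acts after Ato in R8, and R8 then recruits R2 and R5, R3 and R4, R1 and R6, R7 and the cone cells through the EGF receptor and, for R7, through the receptor Sevenless and its R8 ligand Bride of sevenless (Boss). Gal4 lines are separate stocks with their own genetic background, and a difference between 2 crosses can be a difference that the 2 stocks already have.

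The *ato* transcript was higher with Gal4/7 than with atoGal4. It measured 12.22, 12.51 and 12.61 on the Gal4/7 x UASato arrays and 11.30, 11.62 and 11.40 on the atoGal4 x UASato arrays, against 9.80 and 9.77 in the Gal4/7 parent and 9.41 and 10.01 in the atoGal4 parent. The crosses did not overlap with each other or with the parents, and the parents overlapped. The direct difference was 2.00-fold (log2 difference 1.00 ± 0.17 SE, adjusted p = 0.0352, limma), and that between the parents was 1.06-fold (adjusted p = 0.916). The *ato* call was lost when any 1 of the cross arrays other than Gal4/7 x UASato array 1 was left out (adjusted p up to 0.15) and in the fit with salivary gland transcripts as a block that is described below (0.072). The array reads *ato* as a whole and does not separate the transgene from the gene of the fly. A control probe set of the manufacturer, AFFX-Dm-K01486-1_at, whose target the tables used here do not name, also separated the lines. It read between 5.69 and 9.16 on all 13 arrays whose line name includes a Gal4 driver and between 3.29 and 4.01 on the 7 others, and it was the only one of 183 such control sets to do so. On the Gal4/7 x UASato arrays it read 7.58, 7.49 and 7.64, and on the atoGal4 x UASato arrays 6.24, 6.35 and 6.55, a 2.28-fold difference (exact permutation test, two-sided p = 0.10, the smallest that 3 against 3 arrays allow). The Gal4/7 parent read 9.07 and 9.16 and the atoGal4 parent 7.25 and 7.88, so this probe set was higher with Gal4/7 with and without UASato.

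Across 11982 genes, 101 were higher and 66 lower in Gal4/7 x UASato than in atoGal4 x UASato at an adjusted p under 0.05 (limma with Benjamini-Hochberg adjustment over all 18769 probe sets), which is 0.843% and 0.551% of the genes. More than 1.5-fold separated 93 and 52 of them. The parent arrays enter the direct difference only through the estimate of the spread. Leaving out either array of a parent line gave the same direct fit, so a tally over the 10 arrays counts that fit again. Leaving out single arrays moved the counts of called genes. Without Gal4/7 x UASato array 1 they were 156 and 67, without atoGal4 x UASato array 3 they were 22 and 17, and without any other cross array they lay between 30 and 35 and between 16 and 26. Whichever of the 10 arrays was left out, 19 higher and 12 lower genes kept their call. Markers of other tissues moved among these arrays too. Transcripts of the salivary glue genes were high or low by array: *Sgs3* measured 14.03 or more on Gal4/7 x UASato array 1, atoGal4 x UASato arrays 2 and 3 and array 1 of each parent, and 6.78 or less on the other 5, so each line has arrays of both kinds. With this high or low class as a block, which was chosen after the values were seen, 56 genes were higher and 39 lower, and 88 of these were among those called without it. The class is not balanced between the crosses, with 1 high array of 3 with Gal4/7 and 2 of 3 with atoGal4. Besides the genes for which it is given below, the block ended the direct calls of *Traf4* (0.066), *dpr10* (0.067), *Epac* (0.081), *loco* (0.10), *kirre* (0.11), *blanks* (0.093), *Nplp2* (0.057), *CG15522* (0.062), *CG6912* (0.096) and *Cyp9c1* (0.098). A fit of all 20 arrays, whose spread includes the lines not compared here, ended among others those of *inaC* (0.074), *nSyb* (0.11), *cpo* (0.058), *Hml* (0.12), *eater* (0.13) and *Pxn* (0.060). The fat body list lay at 8.92 on Gal4/7 x UASato array 2 and between 11.48 and 13.34 on the other 9 arrays.

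Among R8 genes, *sens* and *boss* were higher with Gal4/7, as was *ato* itself. Of 9 measured genes of R8 specification and of the first steps after Ato, 3 were called higher (*ato*, *sens* and *boss*) and none lower, and the median difference was 0.31 against 0.00 over all genes. Across all genes 0.843% were called higher and 0.551% lower. The list includes *ato*, the gene that the crosses force, so its call is not a response of an R8 gene to Ato. *sens* measured 10.69, 10.73 and 11.02 with Gal4/7 and 9.81, 9.56 and 9.76 with atoGal4, with the driver parents between 8.10 and 8.70. It was thus above all parent arrays in both crosses and 2.15-fold higher with Gal4/7 (log2 difference 1.10 ± 0.14 SE, adjusted p = 0.0105), a call lost without atoGal4 x UASato array 2 or 3 (adjusted p up to 0.052) and in a fit of all 20 arrays (0.66), which include those of atoGal4 x UASsens. The Sevenless ligand *boss* measured 8.61, 9.20 and 9.39 with Gal4/7 and 7.39, 6.97 and 6.90 with atoGal4, and its parents lay between 6.17 and 6.83. The 3.95-fold difference (log2 difference 1.98 ± 0.21 SE, adjusted p = 0.00593) held with each array left out, and the parents had a difference of -0.42 that was not called (adjusted p = 0.578). Not all genes of the list were called. *neur*, the ubiquitin ligase of Notch signaling in neural precursors, measured 10.17, 10.28 and 10.33 with Gal4/7 and 10.17, 10.02 and 10.42 with atoGal4, above the parents at 9.35 to 9.59, and the drivers differed by 0.06 ± 0.11 SE (adjusted p = 0.989). *phyl*, which acts with the degradation machinery in neural precursors and photoreceptors, was at 10.93 to 10.97 with Gal4/7 and 10.42 to 10.73 with atoGal4, groups that did not overlap (difference 0.41 ± 0.09 SE, adjusted p = 0.102).

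**Figure D1:**
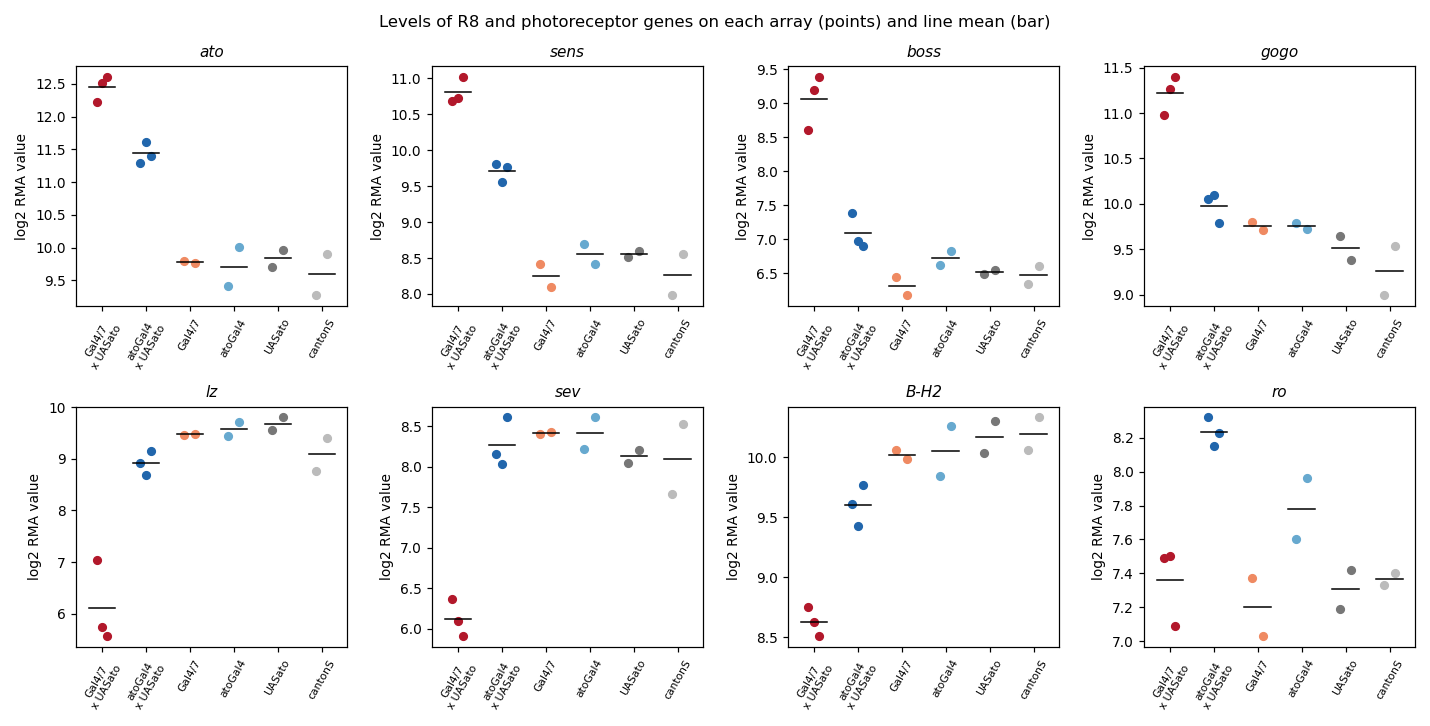
Log2 RMA value (y axis) of 4 genes that were higher and 4 that were lower with Gal4/7 x UASato than with atoGal4 x UASato, for each line (x axis); points are arrays and bars are line means. *ato*, *sens* and *boss* lie above the parents in both crosses and farthest with Gal4/7, *lz* and *sev* are lowest with Gal4/7, and *ro* is high only with atoGal4.

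A part of the genes of later photoreceptors was lower with Gal4/7. In the list for R1 to R7, with 11 genes measured, 4 were lower with Gal4/7 (*lz*, *sev*, *B-H2* and *ro*) and none was higher, and the median difference was -0.61, with 3 of the 11 above 0. Across all genes 0.551% were called lower. The Runx factor gene *lz*, needed in the precursors of R1, R6, R7 and cone cells, measured 7.04, 5.75 and 5.57 with Gal4/7 and 8.91, 8.69 and 9.15 with atoGal4, while the 4 parent arrays lay between 9.45 and 9.72. Both crosses were thus below the parents, and Gal4/7 x UASato was 6.94-fold below atoGal4 x UASato (log2 difference -2.79 ± 0.34 SE, adjusted p = 0.0104). The call was lost without atoGal4 x UASato array 1 or 3 (0.055 and 0.061). The receptor gene *sev* measured 6.37, 6.09 and 5.91 with Gal4/7 and 8.16, 8.04 and 8.61 with atoGal4, and the parents lay between 8.22 and 8.61. It was at the level of the parents with atoGal4 and 4.42-fold lower with Gal4/7 (log2 difference -2.14 ± 0.18 SE, adjusted p = 0.00198), a call kept with each array left out. Its parents differed by 0.00, and the test of the crosses against the parents gave an adjusted p of 0.0533.

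The homeodomain gene *B-H2*, of R1 and R6, followed *lz*, with 8.75, 8.63 and 8.51 with Gal4/7, 9.61, 9.43 and 9.77 with atoGal4 and 9.84 to 10.26 in the parents (1.96-fold lower with Gal4/7, adjusted p = 0.0155, lost with 4 of the 10 arrays left out in turn, up to 0.076). Its neighbor and paralog *B-H1* had a difference of -0.75 ± 0.15 SE that was not called (adjusted p = 0.0606). *ro*, the homeodomain gene of R2 and R5, had another pattern. It measured 7.49, 7.50 and 7.09 with Gal4/7, inside the range of the parents at 7.03 to 7.96, and 8.32, 8.15 and 8.23 with atoGal4, above it. It was 1.83-fold lower with Gal4/7 (adjusted p = 0.0414, up to 0.16 with 1 array left out and 0.093 with the glue gene block). The other members named, *svp* (difference -0.32), *salm* (-0.25) and *pros* (-0.61), had adjusted p between 0.418 and 0.793. Among EGF receptor genes, 2 of 9 were lower with Gal4/7 and none higher, beside 0.551% of all genes called lower. The secreted inhibitor *aos* measured 8.93, 8.87 and 8.73 against 9.83, 9.57 and 9.85, with parents at 9.37 to 9.66 (1.88-fold lower, adjusted p = 0.00593, kept with each array left out). The repressor of the ETS family *aop* was 1.44-fold lower (adjusted p = 0.0486, up to 0.19 with 1 array left out and 0.074 with the glue gene block), and *hh*, the signal that moves the furrow, was 1.49-fold lower (adjusted p = 0.0200, up to 0.093 with 1 array left out and 0.21 in a fit of all 20 arrays).

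Some genes of differentiated photoreceptors and neurons were higher with Gal4/7. *chp*, a surface glycoprotein of photoreceptors, measured 10.26, 10.66 and 11.05 with Gal4/7, 9.07, 9.32 and 9.41 with atoGal4 and 8.60 to 9.32 in the parents (2.62-fold, adjusted p = 0.0269). The eye protein kinase C *inaC* was at 8.85 to 9.29 with Gal4/7, 8.20 to 8.36 with atoGal4 and 7.03 to 7.75 in the parents (1.79-fold, adjusted p = 0.0308). These were the 2 called of 12 measured phototransduction genes, beside 0.843% of all genes called higher. The median difference of the 12 was 0.05, with 7 of the 12 above 0. The rhodopsin phosphatase gene *rdgC*, outside that list, was at 8.88, 9.70 and 10.28 with Gal4/7 against 6.94, 7.35 and 6.84 with atoGal4 and 5.98 to 6.82 in the parents (5.96-fold, adjusted p = 0.0108). A second probe set of *rdgC* gave a difference of 2.44. The photoreceptor guidance receptor *gogo* was at 10.98, 11.27 and 11.40 with Gal4/7, 10.05, 10.10 and 9.79 with atoGal4 and 9.71 to 9.80 in the parents (2.35-fold, adjusted p = 0.00449, kept with each array left out and lost in a fit of all 20 arrays, 0.22). Of these photoreceptor genes, *chp*, *inaC* and *rdgC* lost the call with at least 3 of the 10 arrays left out in turn (adjusted p up to 0.14), and *chp* and *inaC* with the glue gene block (0.052 each).

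Of 16 neuronal differentiation genes 2 were called higher, the calcium channel gene *cac* (2.22-fold, adjusted p = 0.0319) and the synaptobrevin gene *nSyb* (1.51-fold, adjusted p = 0.0362). The median difference of the 16 was 0.23, with 11 above 0. Across all genes 0.843% were called higher, the base for the other lists of this paragraph too. The neuronal RNA-binding gene *elav* was not called (difference -0.15 ± 0.17 SE), and it lay at 10.27 to 10.80 in both crosses. Of 16 neural precursor genes 2 were higher, *cato*, which encodes a relative of Ato (2.48-fold, adjusted p = 0.0327), and *cpo* (1.41-fold, adjusted p = 0.0491). As a whole that list was not higher, with a median difference of -0.04 and 7 of 16 above 0. Of 15 genes of ciliated sensory neurons, only *dila*, needed at the ciliary base, was called (1.82-fold, adjusted p = 0.0158). Their median difference was 0.09, with 11 of 15 above 0. *Ttc30*, which encodes a part of the intraflagellar transport machinery and is not in the list, was 2.55-fold higher (adjusted p = 0.0206). These 6 genes lost the call with at least 2 of the 10 arrays left out in turn (adjusted p up to 0.18), and *cato*, *nSyb* and *cpo* with the glue gene block (0.072, 0.067 and 0.10).

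Among 30 measured genes of 39 that the study tabulates as predicted Ato targets, 6 were higher (*ato*, *sens*, *nvy*, *Mob2*, *Lim3* and *dila*) and 1 lower (*Traf4*) with Gal4/7, and 26 had a difference above 0. *ato* is itself the forced gene. Across all genes 0.843% were called higher and 0.551% lower, and the median difference was 0.00. The tabulated *sca*, *dap*, *Fas2* and *nmo* are among those not read from a probe set naming them alone. The study chose that list with these arrays, so it is no independent evidence. The LIM homeodomain gene *Lim3* measured 8.93, 9.05 and 9.48 with Gal4/7, 8.01, 8.07 and 7.96 with atoGal4 and 7.41 to 7.59 in the parents (2.20-fold, adjusted p = 0.00935). *nvy*, a corepressor gene, was at 9.98, 10.08 and 10.25, at 9.03, 9.19 and 9.17, and at 8.46 to 8.87 in the same order (1.97-fold, adjusted p = 0.0105). The steps ran the same way in both genes, with the atoGal4 cross between the parents and the Gal4/7 cross, and the calls were lost with 2 (*Lim3*, adjusted p up to 0.052) and 3 (*nvy*, up to 0.057) of the 10 arrays left out in turn. The kinase coactivator gene *Mob2* measured 9.35, 9.57 and 9.41 with Gal4/7 and 8.64, 8.46 and 8.38 with atoGal4, and 7.98 to 8.34 in the parents (1.93-fold, adjusted p = 0.00388, kept with each array left out). A dimmer second probe set of *Mob2* had a direct difference of 0.05. *Mob2* was the one gene of the direct difference not called between the parents for which the crosses differed by another amount than the parents (1.21 ± 0.15 SE, adjusted p = 0.0418), and this call was lost with 6 of the 10 arrays left out in turn (up to 0.13) and in a fit of all 20 arrays (0.054).

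The genes with the largest direct increases that the parents did not share included *Esp* (6.34, 7.66 and 7.88 against 4.89, 4.53 and 5.03, 5.57-fold, adjusted p = 0.0220), the neuropeptide receptor gene *NPFR* (6.49, 7.79 and 7.82 against 5.14, 5.13 and 4.88, 4.99-fold, adjusted p = 0.0197) and the cell surface gene *dpr10* (6.30, 7.11 and 7.79 against 4.96, 5.22 and 4.76, 4.25-fold, adjusted p = 0.0292). On Gal4/7 x UASato array 1 each of the 3 was lower than on arrays 2 and 3, and each lost its call with 5 of the 10 arrays left out in turn (adjusted p up to 0.13). *CG32006*, on chromosome 4, lay far above the parents in both crosses, with 9.08, 9.17 and 9.51 with Gal4/7, 7.60, 7.24 and 7.40 with atoGal4 and 4.61 to 5.31 in the parents (3.59-fold between the crosses, adjusted p = 0.00908). The bZIP factor gene *Atf3* was at 8.17, 8.67 and 8.25 with Gal4/7 and at 6.92 to 7.09 with atoGal4, where the parents lay at 7.19 to 7.29 (2.55-fold, adjusted p = 0.00347). *Atf3* kept its call with each array left out, and *CG32006* lost it with 1 (adjusted p = 0.050).

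Among the largest direct decreases, the nuclear receptor gene *tll* measured 5.53, 4.82 and 3.92 with Gal4/7 and 7.44, 7.49 and 6.71 with atoGal4, the latter close to the parents at 6.91 to 7.37 (5.50-fold lower, adjusted p = 0.0272). *CG5653* was at 6.41, 5.96 and 6.0 against 8.11, 7.61 and 8.29, with parents at 8.20 to 9.11 (3.69-fold lower, adjusted p = 0.00943). *superdeath* was at 9.24, 8.60 and 8.34 against 10.64, 10.43 and 10.48, with parents at 9.79 to 10.45 (3.46-fold lower, adjusted p = 0.0105). The ecdysone-induced nuclear receptor gene *Eip78C* was at 8.16, 7.35 and 8.14 against 9.74, 9.71 and 9.17, with parents at 8.15 to 9.09 (3.16-fold lower, adjusted p = 0.0272), and it was the 1 gene called of 15 in the ecdysone list. With the glue gene block the calls of *Eip78C* (0.057) and *tll* (0.056) were lost. *Vajk4* and *Epac* were 5.35-fold and 2.92-fold lower (adjusted p = 0.0216 and 0.0400), and a dimmer second probe set of *Epac* gave a difference of 0.01. The glial fate gene *gcm2* measured 4.03, 3.97 and 3.97 against 5.36, 4.97 and 5.01, a range near the dim end of the array (2.18-fold lower, adjusted p = 0.00908), and with *loco* (1.39-fold lower, adjusted p = 0.0491) it was 1 of 2 called of 11 glial genes, beside 0.551% of all genes called lower. Of these decreases, that of *gcm2* was kept with each array left out, and the others were lost with at least 2 of the 10 arrays left out in turn (adjusted p up to 0.20).

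Blood cell genes formed the list with the highest share of calls. Of 11 hemocyte markers, 5 were higher with Gal4/7 and none lower, beside 0.843% of all genes called higher. All 11 had a difference above 0, and their median difference was 1.42. In the parents none of the 11 was called, 10 had a difference above 0 and the median was 0.65. The clotting factor gene *Hml* measured 9.60, 10.53 and 9.55 with Gal4/7, 8.33, 8.29 and 7.99 with atoGal4, 8.72 and 9.0 in the Gal4/7 parent and 8.28 and 7.85 in the atoGal4 parent (3.22-fold between the crosses, adjusted p = 0.0269). The phagocytosis receptor gene *NimC1* was at 8.83, 9.76 and 9.48 against 7.83, 7.95 and 7.84, with all parents at 7.34 to 7.70 (2.80-fold, adjusted p = 0.0171). The other called members were *eater* (2.67-fold), *Pxn* (2.47-fold) and the collagen gene *vkg* (2.33-fold), with adjusted p between 0.0329 and 0.0496, and the scavenger receptor gene *Sr-CI*, which is not in the list, was 3.99-fold higher (adjusted p = 0.0242). The calls of these 6 genes were lost with at least 4 of the 10 arrays left out in turn (adjusted p up to 0.20), and with the glue gene block that of *NimC1* was kept (0.041) and the others had an adjusted p between 0.054 and 0.10. The mean of the 11 markers was 9.33 to 10.13 on the Gal4/7 x UASato arrays, 8.02 to 8.61 on the atoGal4 x UASato arrays, 8.91 and 9.08 in the Gal4/7 parent and 7.83 and 8.43 in the atoGal4 parent, so the lines with Gal4/7 did not overlap with those with atoGal4. The mean of 7 muscle genes was 8.41 to 8.50 with Gal4/7 x UASato and 7.31 to 7.98 with atoGal4 x UASato, with none called. More hemocytes on the discs and more RNA of these genes per cell cannot be told apart here, and their part in the other differences was not tested.

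**Figure D2:**
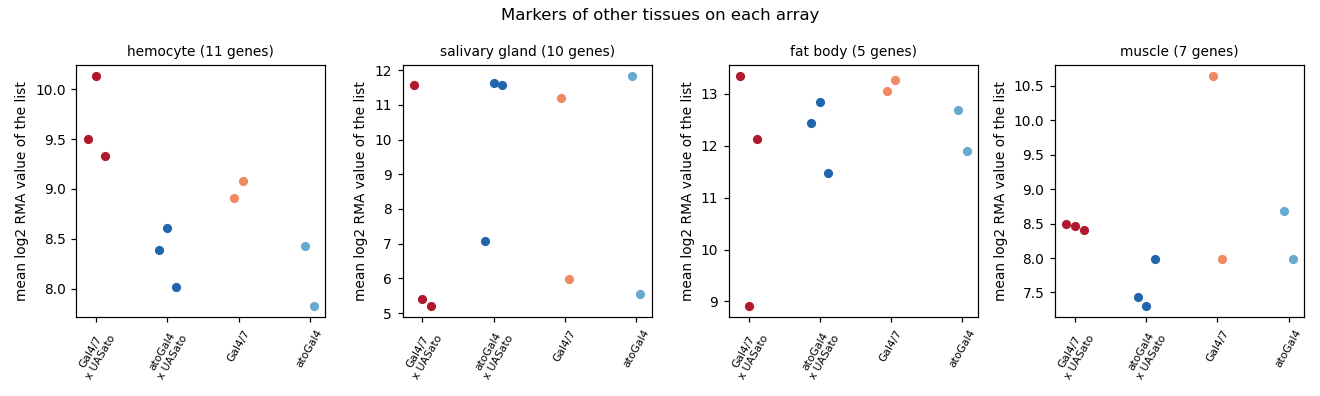
Mean log2 RMA value of the measured genes of 4 marker lists (y axis) on each array (points) of the crosses and their driver parents (x axis). Hemocyte markers lie at 9.33 to 10.13 with Gal4/7 x UASato and at 8.02 to 8.61 with atoGal4 x UASato, and salivary gland genes are high on some arrays of every line and low on others.

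The driver parents differed from each other without any UAS transgene. In Gal4/7, 51 genes were higher and 76 lower than in atoGal4 (0.426% and 0.634% of genes), 48 and 65 of them by more than 1.5-fold. With all arrays centred on their medians the split was 38 higher and 92 lower. These counts depend on the joint estimate of the spread and on single arrays. In a fit of the 4 parent arrays alone 3 and 6 genes were called instead. Without Gal4/7 array 1, 352 genes were higher, and without Gal4/7 array 2, 130. Array 2 correlated with the other 9 at 0.94 to 0.951 across genes, whereas each of those had a correlation of at least 0.981 with some array, and array 1 had a muscle list mean of 10.64 against 7.31 to 8.69 on the other 9. Whichever array was left out, 18 higher and 27 lower genes kept their call.

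Of the 127 genes called between the parents, 39 were also called in the same direction between the crosses, 19 of them higher and 20 lower with Gal4/7. They are 30.7% of the parent calls and 23.4% of the 167 direct calls. Of all 11982 genes, 0.843% were called higher and 0.551% lower between the crosses, and 0.426% and 0.634% between the parents. The 2 comparisons share no array, but in this fit they share the estimate of the spread. With separate fits 8 genes were called in both. Of the 127 genes, 96.9% had a direct difference of the same sign as the parent difference, beside 55.3% of all 11982 genes. The crosses had the smaller difference in 120 of the 123 genes of equal sign, and the median absolute difference of the 127 genes was 1.04 in the parents, where they were chosen, and 0.41 in the crosses. Across all genes the direct and parent differences correlated at 0.15 (Pearson) and 0.18 (Spearman), as a description, since genes are not independent. The 4 genes of opposite sign were *Fie*, *CG31549*, *CG9717* and *Mur89F*, and the last 3 had direct differences between -0.15 and 0.01.

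**Figure D3:**
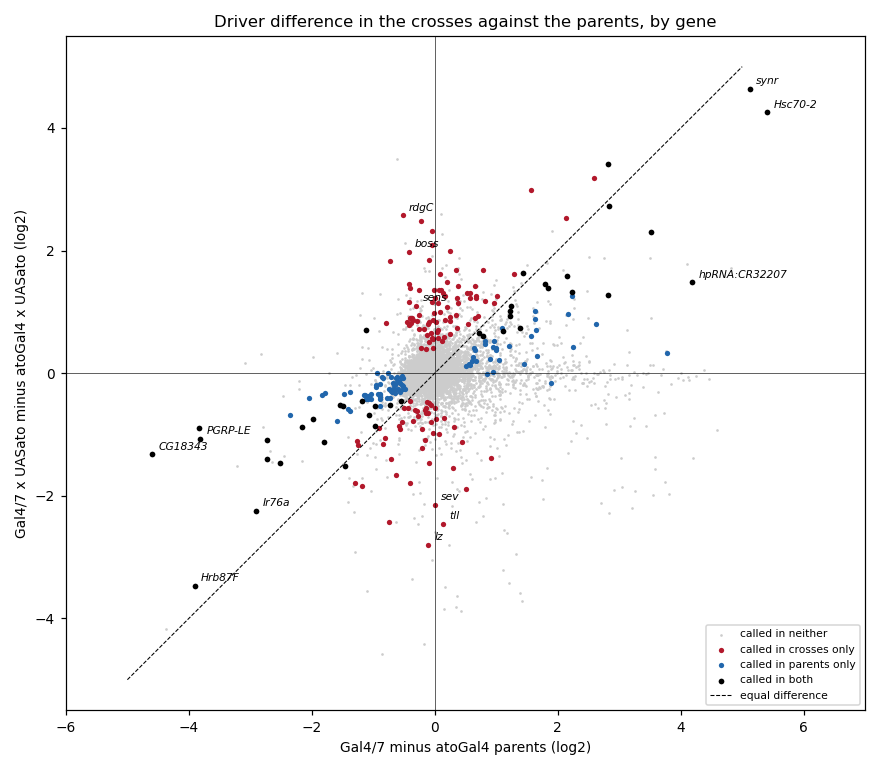
Difference of Gal4/7 x UASato minus atoGal4 x UASato (y axis, log2) against Gal4/7 minus atoGal4 parents (x axis, log2); points are 11982 genes, colored by where they were called at an adjusted p under 0.05, and the dashed line marks equal differences. Genes called in both, such as *synr* and *Hrb87F*, lie along a rising band, and *boss*, *sens*, *sev* and *lz* lie at parent differences near 0.

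The 4 largest direct differences that were called, of *synr*, *Hsc70-2*, *Hrb87F* and *CG34232*, were also called in the same direction between the parents. *synr* measured 7.97, 8.52 and 8.20 in Gal4/7 x UASato and 8.54 and 8.98 in Gal4/7, against 3.61, 3.58 and 3.57 in atoGal4 x UASato and 3.47 and 3.80 in atoGal4. It was 25.0-fold higher between the crosses (adjusted p = 1.74e-05) and 34.8-fold between the parents (adjusted p = 2.05e-05), and at 3.46 to 3.64 in UASato and cantonS. *Hsc70-2*, which encodes a heat shock cognate protein, measured 7.68, 8.14 and 7.99 against 3.76, 3.68 and 3.59 in the crosses and 8.82 and 9.0 against 3.42 and 3.58 in the parents (19.1-fold and 42.5-fold, adjusted p = 6.37e-06 and 2.35e-06). *CG31157*, the gene next to it on 3R, was also high in the 2 lines with Gal4/7 (4.92-fold between the crosses, 11.4-fold between the parents), as was *tut*, which encodes an RNA-binding protein of the male germline (6.65-fold and 7.16-fold). *CG34232* was 10.6-fold and 7.07-fold higher. For *synr*, *Hsc70-2*, *CG31157*, *tut* and *CG34232*, UASato and cantonS lay with atoGal4 and apart from Gal4/7, so Gal4/7 was the stock that stood apart.

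Other genes were high or low in 1 driver stock or in a pair of stocks. *Hrb87F*, which encodes an RNA-binding protein of heterogeneous nuclear particles, measured 8.29, 8.24 and 7.86 in Gal4/7 x UASato and 9.14 and 8.34 in Gal4/7, against 11.60, 11.66 and 11.53 in atoGal4 x UASato and 12.71 and 12.57 in atoGal4 (11-fold and 14.9-fold lower, adjusted p = 0.00027 and 0.000157). UASato was low as well, at 9.59 and 8.32, and cantonS was high, at 11.51 and 11.70. The ionotropic receptor gene *Ir76a* was high in atoGal4 only, with 7.24 and 7.52 there, 6.61, 6.41 and 6.48 in its cross and 4.11 to 4.69 in the other 4 lines (4.73-fold and 7.48-fold lower with Gal4/7). *CG6362* had the same pattern (2.19-fold and 3.47-fold lower). Genes low in the Gal4/7 stock alone were *CG18343*, at 5.31 and 5.34 there and at 9.43 to 10.05 in atoGal4, UASato and cantonS, and *PGRP-LE*, a sensor of bacterial peptidoglycan, at 5.51 and 5.11 against 9.02 to 9.29. In Gal4/7 x UASato they measured 8.55 to 8.66 and 7.92 to 8.38, between Gal4/7 and UASato. The hairpin RNA gene *hpRNA:CR32207* was low in atoGal4 alone, at 5.54 and 4.91, and at 8.45 to 8.52 in its cross, against 9.71 to 10.12 in Gal4/7 x UASato.

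**Figure D4:**
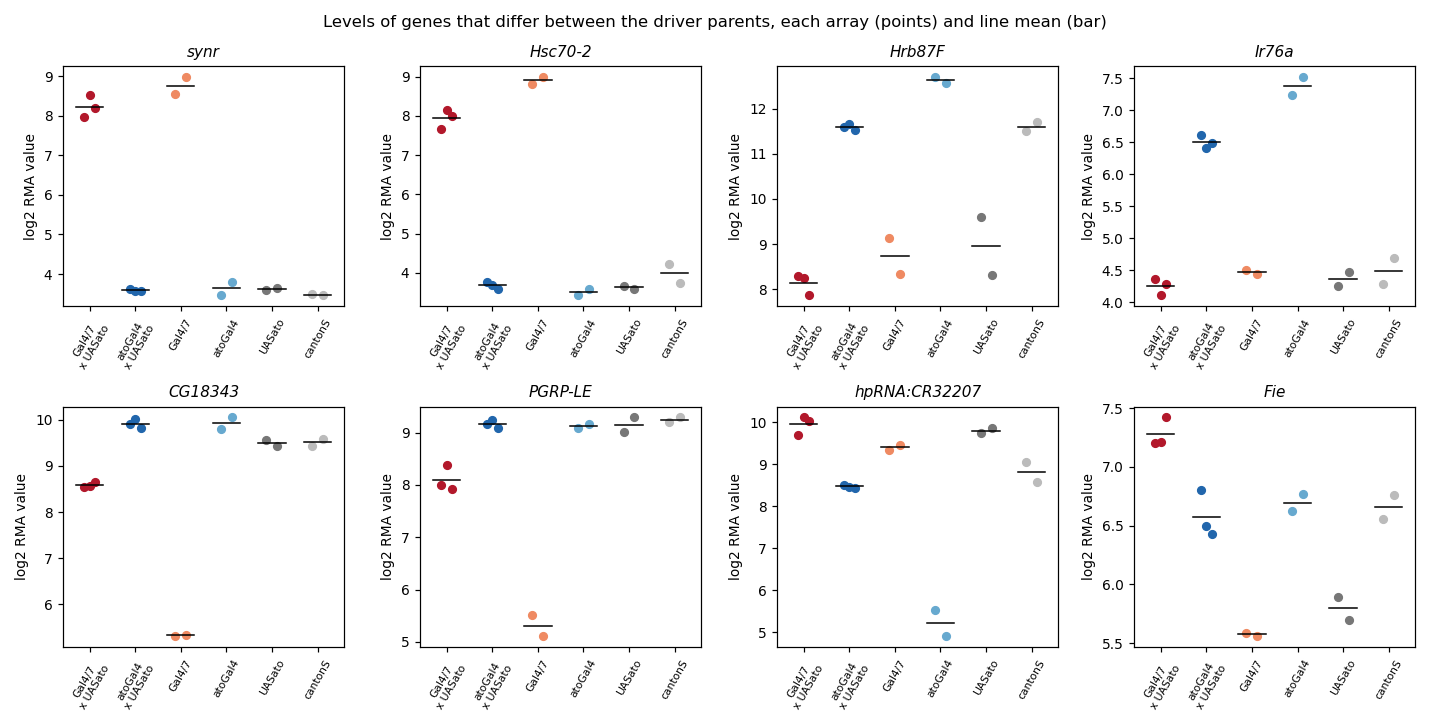
Log2 RMA value (y axis) of 8 genes that differed between the driver parents, for each line (x axis); points are arrays and bars are line means. *synr* and *Hsc70-2* are high only in the 2 lines with Gal4/7, *Ir76a* only in the 2 lines with atoGal4, and *CG18343*, *PGRP-LE* and *hpRNA:CR32207* are low in 1 driver parent and nearer the other lines in its cross.

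For 10 genes the crosses differed by another amount than the parents at an adjusted p under 0.05, 9 with the more positive difference in the crosses (0.0751% of genes) and 1 with the more negative (0.00835%). In 8 of the 10 the difference had the same sign in crosses and parents and was smaller in the crosses. *CG18343* had a difference of -1.32 between the crosses and -4.60 between the parents (difference of the differences 3.28 ± 0.14 SE, adjusted p = 0.000111), and it alone kept this call with each array left out. *PGRP-LE* had -1.07 and -3.81, *CG6912* -0.90 and -3.83, *CG12880* -1.08 and -2.73, *wnd*, a kinase gene of axon injury signaling, -0.75 and -1.99, *CG12863* -0.51 and -1.54, and *CG7054* -0.35 and -1.84. *hpRNA:CR32207* had 1.48 and 4.19. The adjusted p of these 7 lay between 0.0121 and 0.0378. The remaining 2 genes were *Mob2*, given above, and *Fie*, the 1 gene called in opposite directions. *Fie* measured 7.20, 7.21 and 7.42 in Gal4/7 x UASato and 6.80, 6.50 and 6.43 in atoGal4 x UASato, but 5.59 and 5.56 in Gal4/7 and 6.62 and 6.77 in atoGal4, so the Gal4/7 cross was above its own parent and above both lines with atoGal4. The opposite direction depends on the direct call of *Fie* (adjusted p = 0.0302), which was lost with 4 of the 10 arrays left out in turn (up to 0.13), in a fit of all 20 arrays (0.14), with separate fits (0.066) and with a second quantile normalization (0.078). UASato had *Fie* at 5.89 and 5.70. Of simulated differences of this kind 0% of 1.5-fold, 49.5% of 2-fold and 83.5% of 3-fold were called.

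Each cross also has a UASato parent, so its value was set beside the midpoint of its driver parent and UASato, taken on the linear scale. For the 127 genes called between the driver parents, the difference of the 2 midpoints and the direct difference of the crosses correlated at 0.94 (Pearson, across genes, as a description), beside 0.10 over all genes. The 127 genes were chosen for their parent difference, which is part of the midpoint difference. In 109 of them both differences lay within 0.5 of each other on the log2 scale, with a median gap of 0.16, but the median size of the midpoint difference itself was 0.49. The midpoint difference has UASato in both terms and uses no cross array. For *CG18343* it was -1.16 and the crosses had -1.32, for *Hsc70-2* 4.38 and 4.26, for *Ir76a* -2.12 and -2.24, and for *PGRP-LE* -0.89 and -1.07. The 3 largest gaps were those of *Mur89F* (1.31 and -0.15), *CG34232* (2.03 and 3.41) and *Fie* (-0.63 and 0.70). *Osi6*, of the Osiris family, was lower in each cross than in both parents of that cross, with 3.44, 3.56 and 3.52 in Gal4/7 x UASato and 5.01, 4.62 and 5.10 in atoGal4 x UASato, against 4.55 and 4.78 in Gal4/7, 7.38 and 7.41 in atoGal4 and 7.40 and 7.12 in UASato. The mean of the Gal4/7 cross lay between those of its 2 parents in 51.2% of the 127 genes and that of the atoGal4 cross in 65.4%, beside 32.9% and 36.0% of all genes.

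**Figure D5:**
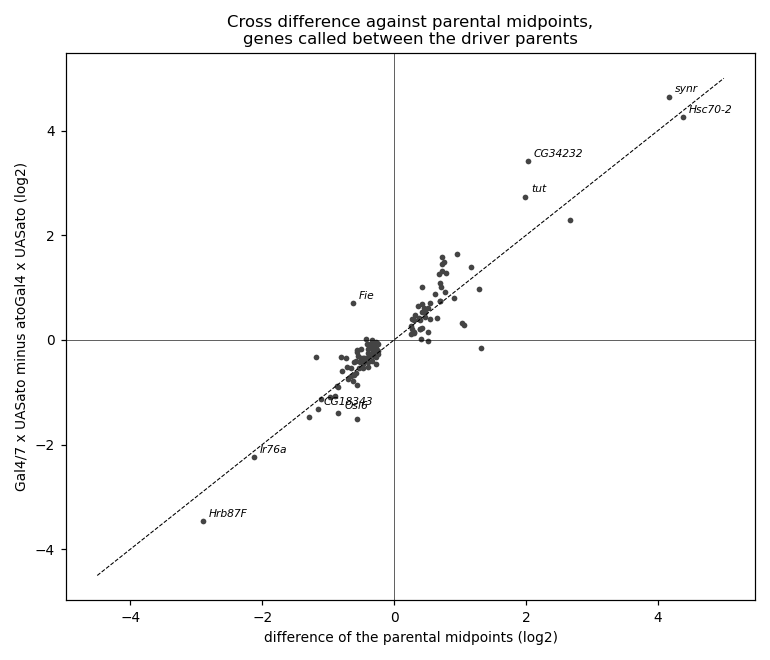
Direct difference of the crosses (y axis, log2) against the difference of the midpoints of Gal4/7 and UASato and of atoGal4 and UASato (x axis, log2, midpoints taken on the linear scale); points are the 127 genes called between the driver parents and the dashed line marks equality. Most genes lie near the line, *CG34232* and *tut* above it, and *Fie* and *Mur89F* on the opposite side of 0.

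Some genes of the parent difference are neighbors on the chromosome among the genes measured. *Hsc70-2* and *CG31157* are next to each other, with parent differences of 5.41 and 3.52. *hpRNA:CR32207*, *hpRNA:CR33940* and *CG32212* follow each other on 3L, with 4.19, 2.82 and 0.94 in the parents and 1.48, 1.27 and 0.42 in the crosses. *Osi4* and *Osi6* on 3R, with 1 measured gene between them, had -2.51 and -2.73 in the parents and -1.46 and -1.41 in the crosses. Neighbors did not always share a sign, since *CG18343* and *CG34232* on 2R, with 8 measured genes between them, had -4.60 and 2.82. By arm, the share of genes called between the parents ran from 0.696% on X and 0.772% on 2L to 1.35% on 3R and 1.54% on 3L, with none of 65 genes on chromosome 4. The direct calls were 1.28% of the genes on 2R, on 3R and on X, 1.32% on 2L and 1.79% on 3L, and 3 of the 65 genes on chromosome 4. These shares are given as counts, with no test.

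The other 127 genes of the direct difference, 81 higher and 46 lower with Gal4/7, were not called between the parents. In 27 of them the parents had a difference of the same sign and at least 0.5 times the size, and in 100 they did not. Examples of the first kind were *Spn47C* (2.52 in the crosses, 2.13 in the parents, adjusted p of the parents 0.0872), *Nplp2* (3.18 and 2.58, 0.200), *CG15522* (2.98 and 1.56, 0.401), *Rnf11* on chromosome 4 (-1.83 and -1.19, 0.0907) and *blanks* (-1.79 and -1.30, 0.229). *Rnf11* kept its direct call with each array left out, and the other 4 lost it with at least 5 of the 10 (adjusted p up to 0.19). A second probe set of *Rnf11* had a direct difference of -0.11. That a gene was not called between the parents does not show that its stocks were alike, since 2 arrays a line recovered 17.5% of simulated 1.5-fold parent differences and 73% of 2-fold ones, against 41.5% and 85% for the crosses.

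Each cross was also set beside the range of the 4 driver parent arrays, which leaves out UASato. A cross outside that range can therefore still lie at its UASato parent. For *Cyp9c1*, Gal4/7 x UASato read 8.59 to 8.93 and UASato 8.78 and 8.97, with the driver parents at 8.07 to 8.18. Of these 127 genes, all 3 Gal4/7 x UASato arrays lay beyond 1 end of that range in 109, beside 12.9% of all genes, and all 3 atoGal4 x UASato arrays in 49, beside 9.21% of all genes. The genes were chosen for a difference between the crosses, so that at least 1 cross lies apart is given by the choice, and the counts are a description. In 72 genes only Gal4/7 x UASato lay outside, 46 of them above and 26 below atoGal4 x UASato. *sev*, *tll* and *Esp* are such genes, and the tetraspanin gene *Tsp42Eg* (5.78, 5.38 and 6.14 against 3.97, 4.12 and 4.16, parents 4.08 to 4.64) and the cell adhesion gene *kirre* (8.94, 9.39 and 9.55 against 8.51, 8.32 and 8.54, parents 8.52 to 8.76) are others (adjusted p = 0.00567 and 0.0491). *Tsp42Eg* kept its call with each array left out and lost it in a fit of all 20 arrays (0.35), and *kirre* lost its call with 9 of the 10 arrays left out in turn (up to 0.20), and its second probe set had a difference of 0.20. In 12 genes only atoGal4 x UASato lay outside, as with *ro*. In 37 both did: above the parents in 26, such as *ato*, *sens*, *boss*, *Lim3* and *CG32006*, below them in 5, such as *lz* and *B-H2*, and on opposite sides in 6, such as *Atf3*. In 6 neither did. The opposite sides of *Atf3* rest on a narrow range, with atoGal4 x UASato at 6.92 to 7.09 just below driver parents at 7.19 to 7.29. UASato read *Atf3* at 7.13 and 7.82 and cantonS at 7.83 and 7.58, a wider spread than that gap.

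Other gene groups had few calls or none between the crosses. Of all 11982 genes only 0.843% were called higher and 0.551% lower. A list of this size with no call or 1 call therefore does not stand apart from all genes. None of 14 members of the E(spl) and Bearded gene clusters, the Notch targets and antagonists of the proneural region, was called (median -0.05), and *E(spl)mdelta-HLH* measured 11.69 to 11.86 with Gal4/7 and 11.88 to 12.01 with atoGal4, and the 4 parent arrays lay at 11.38 to 11.76. None of 6 genes of Notch signaling, 8 of retinal determination, 7 of dorsal and ventral eye patterning, 11 of cell cycle and replication, 6 of the heat shock response, 12 antimicrobial and immune genes and 17 eye and body color genes was called. Only genes that could be read from a probe set naming them alone are counted. These were 6 of 12 listed for Notch signaling, 6 of 12 for the heat shock response and 11 of 20 for the cell cycle. *N*, *Su(H)*, *Hsp70Ab* and *stg* are among those not read. The retinal determination genes *eya* and *dac* had differences of -0.18 ± 0.09 SE and -0.34 ± 0.10 SE (adjusted p = 0.628 and 0.243). Among 34 glutathione S-transferases none was called between the crosses and *GstD3* was lower in the Gal4/7 parent (1.68-fold, adjusted p = 0.0204, lost with 4 of the arrays left out, up to 0.10). Of 56 cytochrome P450 genes, *Cyp9c1* was higher in the crosses (1.49-fold, adjusted p = 0.0476, lost without any 1 of the arrays, up to 0.18). *GstD3* was the only call between the parents in the 33 lists, so the genes of R8, of photoreceptors and of hemocytes that separated the crosses were not called between the stocks.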

How the data were processed

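RNA of eye-antennal discs was hybridized by the authors to Affymetrix *Drosophila* arrays, and the deposited values are log2 values after RMA (background correction, quantile normalization and summary by probe set; the version is not given in the sources used here). Scanner files were not used. The table holds 18952 probe sets, of which 183 are controls of the manufacturer, so that 18769 entered the tests. Of these, 13647 name 1 gene, 402 several and 4720 none in the platform annotation. Each of 11982 genes was read from its brightest probe set naming only it (1094 genes have more than 1), and 11893 symbols were brought up to date with a RefSeq gene table. Chromosome arms and the order of genes along them came from the positions in that table, and no sequences were used. Array data carry no read depth, and precision is limited by the 3 or 2 arrays of each line.

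The 4 lines were fitted together in limma 3.58.1 (R 4.3.3; lmFit, eBayes) with 6 residual degrees of freedom, and 3 contrasts were tested: the direct difference of the crosses, that of the driver parents, and the difference of these. The last shares arrays with both others. Genes were called at a Benjamini-Hochberg adjusted p under 0.05. Genes named by rule were the 12 largest calls in each direction of the direct difference, 8 of the parent difference (groups not overlapping) and 6 of the difference of these, *ato*, *sens* and *boss*, and up to 3 members of each of 33 lists. The genes *Sgs3*, *phyl*, *ro*, *B-H1*, *svp*, *salm*, *pros*, *elav*, *gogo*, *Ttc30*, *nvy*, *Mob2*, *CG32006*, *Atf3*, *Pxn*, *vkg*, *Sr-CI*, *CG6362*, *wnd*, *CG12863*, *CG32212*, *CG31549*, *CG9717*, *Mur89F*, *Tsp42Eg* and *GstD3* were chosen after their values were seen. The comparison, the lists and the tests were chosen with earlier results of these data known. Samples were grouped by the line in the labels. The steps were tested on simulated data, where 85% of 2-fold direct, 73% of 2-fold parent and 49.5% of 2-fold differences between these were called. Alternatives were separate fits, all 20 arrays, a brightness filter, other scalings, trend and robust moderation, replicate and glue gene blocks, array weights, other probe sets, other thresholds and leaving out each array. Summaries and figures were made in Python 3.11.15 (scipy 1.17.1, numpy 2.4.6, matplotlib 3.10.9, pandas 2.3.3).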

Additional observations from a re-analysis of the deposited data

Results flagged for a closer look

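For 10 genes the difference between the crosses and the difference between the driver parents were not equal by a test of their difference (limma, adjusted p under 0.05). On the log2 scale, crosses minus parents, these values were 3.278 for *CG18343*, 2.934 for *CG6912*, 2.742 for *PGRP-LE*, 1.821 for *Fie*, 1.651 for *CG12880*, 1.488 for *CG7054*, 1.24 for *wnd*, 1.206 for *Mob2*, 1.028 for *CG12863* and -2.71 for *hpRNA:CR32207*. *CG18343* kept this call with each array left out, and the 9 others lost it with at least 2 of the 10 (adjusted p up to 0.13).

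The Affymetrix control probe set AFFX-Dm-K01486-1_at, which no comparison across genes used, read at least 5.69 on each of 13 arrays of lines with a Gal4 driver and at most 4.01 on the 7 arrays of lines without. What it measures was not tested. No line had enough arrays for a check of single outlying arrays within a line.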

How the results depend on the processing

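No called gene named in the text changed direction in its own probe set. Dimmer probe sets of some named genes had much smaller direct differences: 0.01 against -1.55 for *Epac*, 0.27 against 1.31 for *Pxn* and 0.44 against 1.15 for *cac*, besides those given above for *Mob2*, *Rnf11* and *kirre*. Dimmer sets of *rdgC*, *gogo*, *Vajk4* and *Traf4* had 2.44, 0.98, -3.46 and -1.03. In the parents, 2 dimmer sets of *Mur89F* had 0.27 and -0.02 against 1.89. Of 1584 values of 84 named direct calls 422 lost the call under an alternative, of 566 values of 30 parent calls 54, and of 180 values of 10 differences between these 51. Against 101 higher and 66 lower genes in the direct difference, array weights gave 181 and 101, the glue gene block (chosen after the values were seen) 56 and 39, and an adjusted p under 0.01 gave 25 and 15. Leaving out 1 array gave 22 to 156 and 16 to 67. Against 51 and 76 in the parent difference, separate fits of crosses and parents, which leave 2 residual degrees of freedom, gave 3 and 6, array weights 33 and 45, and an adjusted p under 0.01 gave 21 and 29. All 20 arrays gave 116 lower. Leaving out 1 array gave 25 to 352 and 39 to 70. Against 9 and 1 for the difference between these, all 20 arrays gave 31 and 17, trend and robust moderation 25 and 15, a second quantile normalization 14 and 2, a brightness filter 4 more negative, array weights and the glue gene block 2 each, and an adjusted p under 0.01 gave 1 and 0. Leaving out 1 array gave 1 to 37 and 0 to 279. Against 39 genes called in both, separate fits gave 8, an adjusted p under 0.01 gave 19, and leaving out 1 array 20 to 41. Beyond fewer arrays or a stricter threshold, the cause of these shifts was not tested. The replicate numbers did not pair the samples (correlations of deviations -0.287, -0.319 and 0.159 in the crosses and 0.241 in the parents). With them as a replicate block the direct difference had 64 higher and 44 lower genes, the parent difference 41 and 49 and the difference between these 1 and 0.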
